A study of Mus musculus with 14 samples.

Results

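The 10 genes described here encode the enzymes that add methyl groups to DNA (Dnmt1, Dnmt3a, Dnmt3b) with the Dnmt1 partner Uhrf1, the oxidases that begin the removal of DNA methylation (Tet2, Tet3), and the core of Polycomb repressive complex 2 (PRC2: Ezh1, Ezh2, Eed, Suz12). They were selected by name with earlier results of these data known, as were the gene lists below, so counts of calls among them are descriptions. Their probes were found through the RefSeq accession that the array gives each probe: 18 probes matched the 10 genes, out of 26055 named probes and 19751 named genes. Where a gene had several probes, the probe with the highest mean signal stood for it. Liver RNA of CD-1 mice, an outbred strain, was compared on 14 microarrays carrying 2 dyes. The 6 groups were untreated males and females, aged 3 wk (M3, F3), 4 wk (M4, F4) or 8 wk (M8, F8), and no group carried a transgene or a deletion. Each sample was a pool of livers, of 5 mice at 3 wk and 6 mice at 4 and 8 wk, and each group had 2 pools. The arrays formed 7 comparisons, of males over females at each age (M3/F3, M4/F4, M8/F8) and of 8 wk over the younger age within a sex (M8/M3, M8/M4, F8/F3, F8/F4). Each comparison had 2 arrays with different pools and exchanged dyes, so that every value below rests on n = 2 and the number of arrays limits its precision.

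DNA methylation patterns are copied at each round of DNA replication by Dnmt1, which Uhrf1 brings to newly replicated, hemimethylated sites, whereas Dnmt3a and Dnmt3b can methylate sites that carried no methyl group. Tet enzymes oxidise methylcytosine. PRC2 methylates H3K27, a mark of silenced genes. Its catalytic subunit is either Ezh2, which is prominent in dividing cells, or Ezh1, which is prominent in cells that have left the cell cycle, and Eed and Suz12 are needed for activity with either. Hepatocytes divide often in the first weeks after birth and rarely in adult liver.

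The promoters of 5 of the genes are shown because they hold, or lack, a sequence word bound by E2F factors, which drive genes of the G1 to S transition, and because Uhrf1, Ezh2 and Dnmt3b were the genes called lower with age. The letters are those of RefSeq (build GRCm38.p6), read 5′ to 3′ on the strand of the gene, from 250 bases before to 30 bases after the transcription start. Capitals mark the E2F words TTTCCCGC, TTTCGCGC, TTTGCCGC and TTTGGCGC and the NF-Y word CCAAT, each searched on both strands, so that a word on the opposite strand appears as its reverse complement. In Dnmt1, CCAAT words on opposite strands overlap in a single run of capitals. Uhrf1 and Dnmt1 have several starts, and the window shown was picked for the most E2F words and then the most CCAAT words.
Uhrf1, chr17:56304063-56304342, plus strand: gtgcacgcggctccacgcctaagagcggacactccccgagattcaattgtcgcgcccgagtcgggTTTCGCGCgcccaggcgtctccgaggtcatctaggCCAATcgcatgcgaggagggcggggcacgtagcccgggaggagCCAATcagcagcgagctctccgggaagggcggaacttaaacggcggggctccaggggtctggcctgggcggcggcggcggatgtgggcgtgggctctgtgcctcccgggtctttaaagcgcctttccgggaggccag
Ezh2, chr6:47595001-47595280, minus strand: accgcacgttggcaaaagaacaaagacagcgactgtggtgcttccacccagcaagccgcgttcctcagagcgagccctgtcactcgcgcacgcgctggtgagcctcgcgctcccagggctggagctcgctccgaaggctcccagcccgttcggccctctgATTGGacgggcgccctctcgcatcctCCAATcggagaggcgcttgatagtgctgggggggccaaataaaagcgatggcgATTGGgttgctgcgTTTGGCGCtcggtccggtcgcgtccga
Dnmt1, chr9:20952594-20952873, minus strand: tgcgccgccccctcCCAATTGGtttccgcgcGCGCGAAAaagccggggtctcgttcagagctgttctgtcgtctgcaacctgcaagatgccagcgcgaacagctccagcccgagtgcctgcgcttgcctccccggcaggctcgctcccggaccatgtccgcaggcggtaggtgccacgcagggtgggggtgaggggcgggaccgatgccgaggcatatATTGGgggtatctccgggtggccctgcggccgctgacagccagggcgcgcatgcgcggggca
Suz12, chr11:79992856-79993135, plus strand: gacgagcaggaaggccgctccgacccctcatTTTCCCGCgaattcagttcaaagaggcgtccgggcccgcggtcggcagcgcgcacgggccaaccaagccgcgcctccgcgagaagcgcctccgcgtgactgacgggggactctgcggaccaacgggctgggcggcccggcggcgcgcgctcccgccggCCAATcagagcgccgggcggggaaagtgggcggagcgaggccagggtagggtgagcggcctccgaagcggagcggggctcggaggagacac
Dnmt3b, chr2:153649199-153649478, plus strand: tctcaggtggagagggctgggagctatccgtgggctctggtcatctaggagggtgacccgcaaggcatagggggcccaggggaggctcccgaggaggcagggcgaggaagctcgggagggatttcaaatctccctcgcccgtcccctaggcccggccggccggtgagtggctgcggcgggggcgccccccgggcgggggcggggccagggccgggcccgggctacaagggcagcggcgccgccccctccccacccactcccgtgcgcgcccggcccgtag

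All 10 genes had an entry in the promoter table, with 15 starts in all. An E2F word was found at a start of 4 genes: Uhrf1 (1 of its starts), Ezh2, Dnmt1 (1 of its starts) and Suz12. Counted by start, such a word occurred at 4 of the 15 starts, and in 2.12% of the 32851 promoters of the table in windows of the same length. The windows with the word held 32 (Uhrf1), 30 (Ezh2), 30 (Dnmt1) and 41 (Suz12) CG pairs. Over all promoters the median was 6 CG pairs and the upper quartile 19. Every E2F word holds a CG pair, so the share over all promoters is not matched for CG content. CCAAT occurred at 8 of the 15 starts, those of Dnmt1, Uhrf1, Tet3, Ezh2, Eed and Suz12, and in 36.1% of all promoters. For Ezh2 the E2F word began 4 bases into the transcript, and for Uhrf1 it began at position -185. The Dnmt3b window held neither word. A match is a description of the letters only.

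Signals were adequate for most of the genes. The probe that stood for a gene was well above background in all 28 channels for 9 of the 10 genes, and in 26 of 28 channels for Tet3. Median processed signals ran from 40 for Tet3 to 5470 for Eed. Since each probe binds with its own efficiency, these signals do not order the genes by abundance. Over all arrays, 55.2% to 77.2% of spots were well above background and 0 were saturated. The direction of the ratios was checked with sex-linked genes: on all 6 sex arrays the log2 male over female ratio of the Y-linked Ddx3y lay between 5.80 and 7.24, and that of Xist between -6.67 and -5.10. All 6 hepatocyte markers examined were well above background in every channel. With whole tissue, fewer cells of a type and less RNA per cell cannot be told apart.

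The age comparisons asked which of these genes changed between the prepubertal period and young adulthood. Uhrf1, Dnmt3b and Ezh2 fell with age in both sexes, Ezh1 rose by a smaller amount in both sexes, and Suz12 stayed within 0.08 log2 units of 0. A change was said to pass the test at an adjusted p below 0.05 (limma, adjusted over all probes and all 7 comparisons), and was called when the ratio was also past 1.5-fold, 0.58 on the log2 scale. In M8/M3, 3 of the 10 genes were called lower and 0 higher, where 10.0% of all named genes above background were called lower and 7.81% higher. In M8/M4, 2 were called lower and 0 higher (6.38% and 4.44% of all genes). Among females 3 were called lower and 0 higher from 3 wk (F8/F3, 6.64% and 5.08% of all genes), and 2 lower and 0 higher from 4 wk (F8/F4, 3.72% and 2.28%). Without the fold threshold, 5 genes were lower and 1 higher in M8/M3, against 20.3% and 21.7% of all genes. The counts were 4 lower and 1 higher in M8/M4 (14.8% in each direction over all genes). In females they were 4 lower and 1 higher from 3 wk (16.6% and 17.0%), and 3 lower and 1 higher from 4 wk (10.7% and 10.6%). The median log2 ratio of the 10 genes was -0.27, -0.07, -0.27 and -0.16 in the same order of comparisons, beside medians over all genes of 0.01, 0.02, 0.02 and 0.02.

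**Figure D1:**
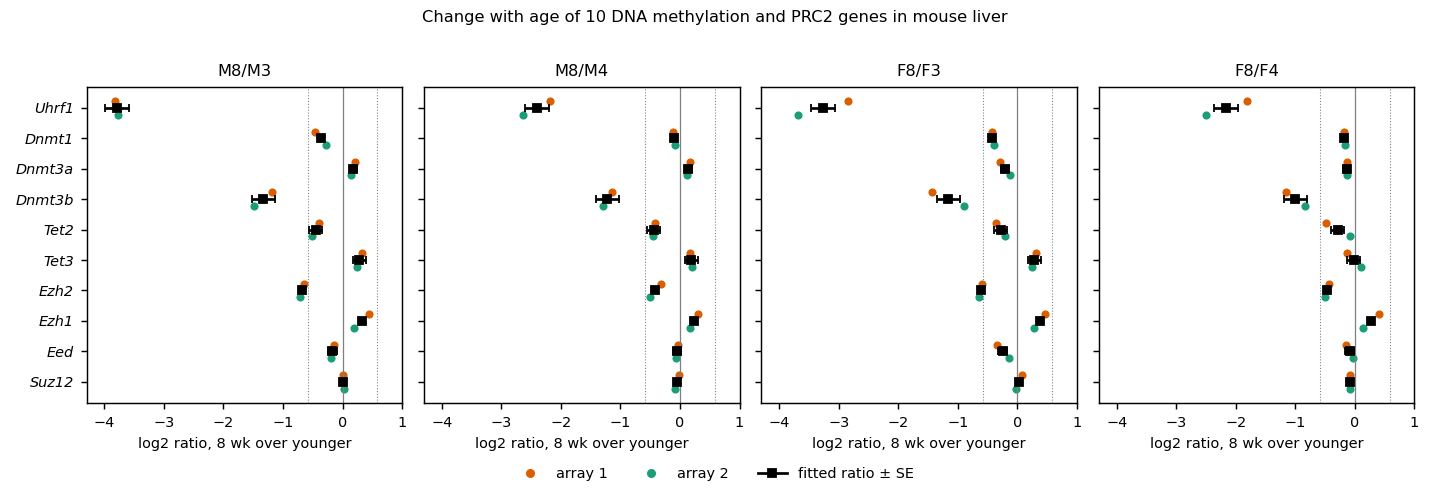
Log2 ratio of 8 wk over the younger age (x axis) for the 10 genes (y axis) in the 4 age comparisons. Circles are the 2 arrays, squares with bars the fitted ratio ± SE, and dotted lines the 1.5-fold threshold. Uhrf1 and Dnmt3b lie left of the threshold in every panel, Ezh2 does so in M8/M3 and F8/F3, and Ezh1 lies right of 0 in every panel.

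Uhrf1 (chr17:56303337-56323486), the protein that recognises hemimethylated DNA behind the replication fork, showed the largest change of the 10 genes in every age comparison. Its log2 ratios on the 2 arrays were -3.82 and -3.77 in M8/M3 and -2.18 and -2.63 in M8/M4, and for females -2.85 and -3.68 from 3 to 8 wk and -1.82 and -2.50 from 4 to 8 wk. All 8 arrays were thus negative, and the ratios against 3 wk liver lay below those against 4 wk liver without overlap within each sex. The fitted fall was 13.9-fold in M8/M3 (log2 ratio -3.79 ± 0.20, SE; adjusted p = 0.00017) and 5.30-fold in M8/M4 (-2.40 ± 0.20; adjusted p = 0.0007). In females it was 9.60-fold from 3 to 8 wk (-3.26 ± 0.20; adjusted p = 0.00026) and 4.48-fold from 4 to 8 wk (-2.16 ± 0.20; adjusted p = 0.00101). The difference between the sexes in the 3 to 8 wk fall, -0.53, had a 95% interval of -1.21 to 0.15 and did not pass the test (adjusted p = 0.394), and it was 0.27 with normexp and loess. The size of the fall depended on the processing, although it was called under every setting tried. With normexp background correction and an offset of 50, followed by loess, the log2 ratios were -2.32 and -1.62 in males and -2.59 and -1.72 in females, from 3 and 4 wk. A further Uhrf1 probe was well above background in only 4 of 28 channels, and the mean over both probes was -2.72 and -1.50 in males and -1.94 and -1.13 in females.

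Since no array set 3 wk against 4 wk liver, the step between these ages was taken from the difference of the age comparisons. For Uhrf1 it was -1.39 ± 0.28 in males (adjusted p = 0.106) and -1.10 ± 0.28 in females (adjusted p = 0.24). It did not pass the test in either sex, although the intervals, -2.06 to -0.71 and -1.78 to -0.42, lay below 0. Across all genes 0.591% passed this test in males and 0.153% in females, and 0 of the 10 did in either sex, while 3 of the 10 had an unadjusted p below 0.05 in each, as had 17.4% and 14.2% of all genes. The fit takes the arrays as independent, although the 8 wk pools are on both sides of this difference. Since the shared pools cancel in it, the fit overstates its error.

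Levels of single pools, solved from all arrays and centred on the mean of each gene, showed the same course. The M3 pools averaged 1.69 ± 0.27 (SD, n = 2), and the M4 pools stood at 0.23 and 0.31 and the M8 pools at -2.19 and -2.05 log2 units for Uhrf1. Female pools stood at 1.31 and 1.66 at 3 wk, 0.30 and 0.54 at 4 wk, and -1.83 and -1.67 at 8 wk. The 3 ages did not overlap in either sex, and at 3 and 4 wk the pools of the sexes overlapped.

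**Figure D2:**
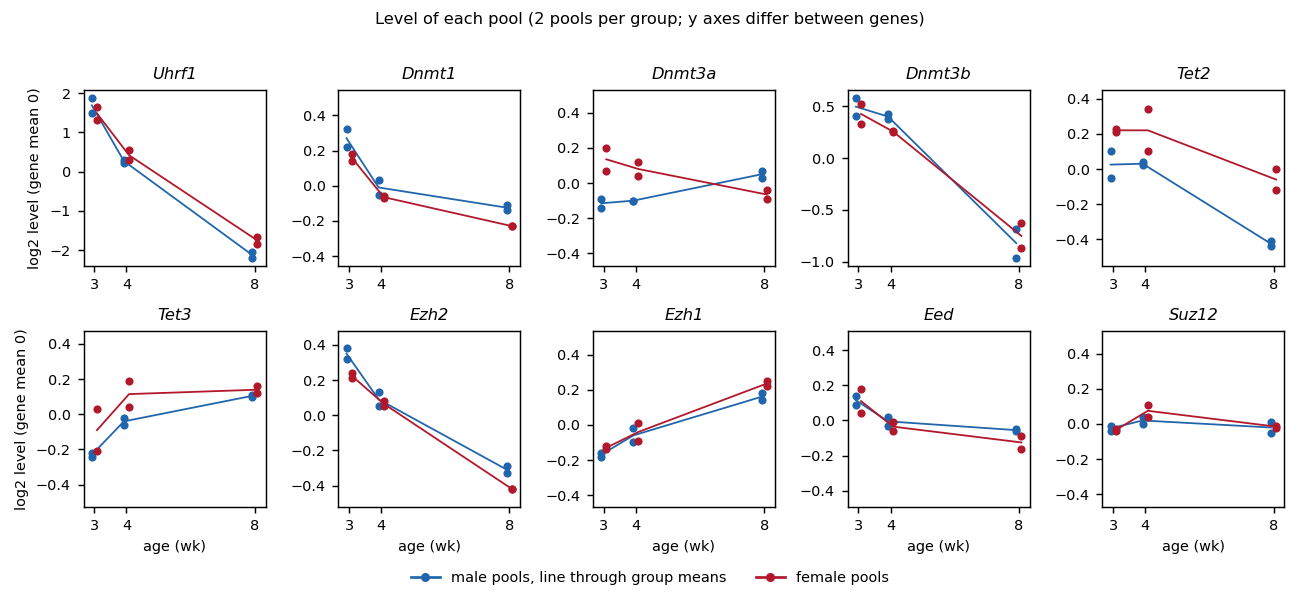
Log2 level of each pool (y axis, gene mean at 0) against age in weeks (x axis) for the 10 genes. Points are the 2 pools of a group, lines join group means, and y axes differ between genes. Uhrf1 falls by over 3 log2 units from 3 to 8 wk in both sexes, and the Dnmt3a lines of the sexes cross between 4 and 8 wk.

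Dnmt1 (chr9:20907206-20959888), the maintenance methyltransferase, changed far less than its partner. Its log2 ratios were -0.46 and -0.27 in M8/M3 and -0.43 and -0.40 in F8/F3, all 4 negative. The fitted ratios, -0.37 ± 0.05 (adjusted p = 0.00604) and -0.42 ± 0.05 (adjusted p = 0.00369), passed the test as 1.29-fold and 1.33-fold falls, under the fold threshold. From 4 wk the ratios were -0.10 ± 0.05 in males and -0.18 ± 0.05 in females and did not pass (adjusted p = 0.34 and 0.0803). The male fall lost the test without replicate 1 of M8/M3 (adjusted p = 0.0695), and both did when the pools shared between comparisons entered the covariance of the arrays (adjusted p = 0.0876 and 0.0581).

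The de novo methyltransferases differed from each other. Dnmt3b (chr2:153649411-153687730) fell in all 4 age comparisons. Its log2 ratios were -1.18 and -1.49 in M8/M3 and -1.14 and -1.30 in M8/M4, and for females -1.43 and -0.89 from 3 to 8 wk and -1.16 and -0.84 from 4 to 8 wk. The fitted folds were 2.52 (adjusted p = 0.00462), 2.33 (adjusted p = 0.00646), 2.23 (adjusted p = 0.00794) and 2.00 (adjusted p = 0.0137), each with an SE of 0.19 on the log2 scale. The 3 to 4 wk step was small beside these falls, at -0.11 ± 0.26 in males and -0.15 ± 0.26 in females. Pool levels were 0.41 and 0.58 in M3, 0.38 and 0.42 in M4, and -0.96 and -0.68 in M8, so that the 8 wk pools stood apart and the younger ages overlapped. Female pools stood at 0.33 and 0.52 in F3, 0.25 and 0.26 in F4, and -0.87 and -0.63 in F8, with no overlap between the ages.

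Separate Dnmt3b probes gave the same direction with smaller sizes. The second probe had log2 ratios of -0.96 and -0.86 in males and -0.86 and -0.81 in females from 3 and 4 wk, and was called each time. The third had -0.82 in M8/M3 and -0.79 in F8/F3, both called, whereas its ratio of -0.75 against 4 wk liver in each sex missed the test (adjusted p = 0.0586 and 0.0589). All 3 probes carry the same accession, and where on the transcript each one lies was not given in the sources used here. The Dnmt3b call was lost without replicate 2 of M8/M3 (adjusted p = 0.0538) or of M8/M4 (adjusted p = 0.0736), without replicate 1 of F8/F3 (adjusted p = 0.0905), and without either array of F8/F4 (adjusted p = 0.126 and 0.0663).

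**Figure D3:**
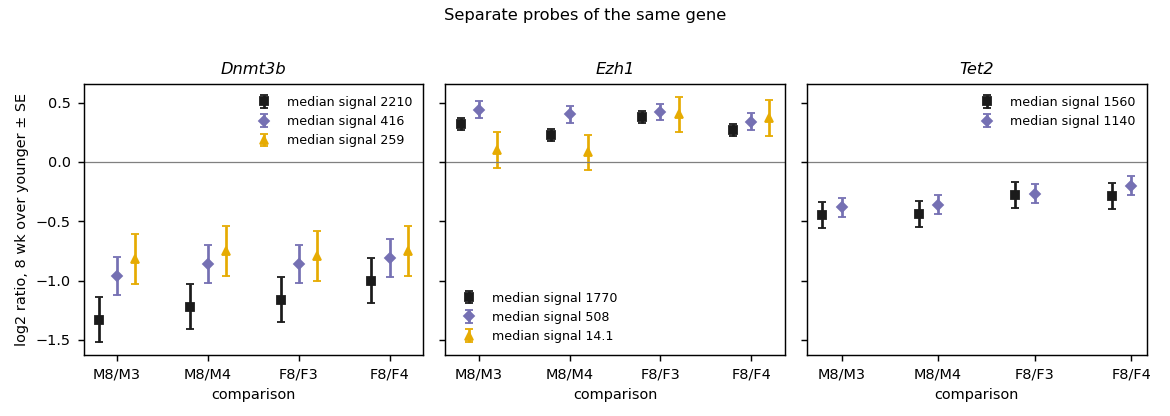
Fitted log2 ratio ± SE of 8 wk over the younger age (y axis) in the 4 age comparisons (x axis) for each probe of Dnmt3b, Ezh1 and Tet2. Every probe of Dnmt3b and Tet2 is below 0 and every probe of Ezh1 above 0, and the dimmest Ezh1 probe, with a median signal of 14.1, has wide errors.

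Dnmt3a (chr12:3801559-3914443) did not share this fall. Its log2 ratios were 0.21 and 0.15 in M8/M3 and 0.17 and 0.12 in M8/M4, all positive, and for females -0.30 and -0.13 from 3 wk and -0.14 and -0.14 from 4 wk, all negative. None of the 4 fitted ratios (0.18, 0.14, -0.21 and -0.14, each ± 0.06) passed the test (adjusted p = 0.109, 0.186, 0.0613 and 0.199). The difference between the sexes was 0.39 ± 0.09 for 3 to 8 wk (adjusted p = 0.0563) and 0.28 ± 0.09 for 4 to 8 wk (adjusted p = 0.213), with intervals of 0.19 to 0.59 and 0.08 to 0.48. The M8/M3 and F8/F3 arrays were scanned on different days, whereas those of M8/M4 and F8/F4 shared a day; the part of the scan day was not tested beyond a dye term per day (adjusted p = 0.0807 and 0.242). On the sex arrays, which carried the same pools, the corresponding differences were 0.36 and 0.30. Across all genes, 6.49% passed the first of these tests and 2.08% the second, and 0 of the 10 passed either, with 1 of the 10 at an unadjusted p below 0.05 in each (26.2% and 17.6% of all genes).

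The oxidases changed little. Tet2 (chr3:133463677-133545136), one of the enzymes that convert methylcytosine to hydroxymethylcytosine, had log2 ratios of -0.39 and -0.51 in M8/M3 and -0.42 and -0.46 in M8/M4, and for females -0.36 and -0.21 from 3 to 8 wk and -0.49 and -0.08 from 4 to 8 wk. All 8 arrays were negative. The male falls passed the test as 1.37-fold (-0.45 ± 0.11; adjusted p = 0.0353) and 1.36-fold (-0.44 ± 0.11; adjusted p = 0.0376) changes. The female ratios, -0.28 and -0.29 (each ± 0.11), did not pass (adjusted p = 0.146 and 0.141), and the difference between the sexes was not distinguishable from 0 (-0.17, 95% interval -0.53 to 0.20). A second Tet2 probe gave -0.38, -0.36, -0.27 and -0.20 in the same order, with adjusted p = 0.0217 and 0.0276 for the male comparisons. The male result was fragile, since leaving out single arrays ended it in 8 of 14 cases for M8/M3 and in 10 of 14 for M8/M4.

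Tet3 (chr6:83362373-83457208) was measured at low signal. Its ratios of 0.28, 0.19, 0.28 and -0.02 (each ± 0.11) did not pass the test in any age comparison (adjusted p = 0.163, 0.361, 0.163 and 1). A pair of further Tet3 probes was well above background in only 11 and 3 of 28 channels.

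Within PRC2 the catalytic subunits moved in opposite directions. Ezh2 (chr6:47530274-47595270) had log2 ratios of -0.65 and -0.71 in M8/M3 and -0.32 and -0.51 in M8/M4, and for females -0.60 and -0.65 from 3 to 8 wk and -0.43 and -0.50 from 4 to 8 wk. The 3 to 8 wk falls were 1.60-fold in males (-0.68 ± 0.04; adjusted p = 0.000236) and 1.54-fold in females (-0.62 ± 0.04; adjusted p = 0.000306), both called. The 4 to 8 wk falls of 1.34-fold (-0.42 ± 0.04; adjusted p = 0.00118) and 1.38-fold (-0.47 ± 0.04; adjusted p = 0.000803) passed the test below the fold threshold. The sexes differed by -0.06 in the 3 to 8 wk fall, with a 95% interval of -0.19 to 0.08. Both calls lay close to the fold threshold: with normexp background correction and loess normalization the M8/M3 ratio was -0.57, and without replicate 1 of F8/F3 that ratio was -0.58, neither called.

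Ezh1 (chr11:101191115-101226463) rose in all 4 age comparisons, by less than 1.5-fold. Its log2 ratios were 0.45 and 0.20 in M8/M3 and 0.30 and 0.16 in M8/M4, and for females 0.47 and 0.28 from 3 to 8 wk and 0.40 and 0.13 from 4 to 8 wk, positive on all 8 arrays. Replicate 1, with the younger RNA in red, gave the higher value each time, and since replicate and dye order go together on these arrays, pool and dye cannot be told apart. The fitted rises were 1.25-fold (0.32 ± 0.05; adjusted p = 0.00635), 1.18-fold (0.23 ± 0.05; adjusted p = 0.0225), 1.30-fold (0.38 ± 0.05; adjusted p = 0.00359) and 1.20-fold (0.27 ± 0.05; adjusted p = 0.0137). With no dye term only F8/F3 passed, and the adjusted p was 0.0622, 0.171 and 0.121 in the others. Without replicate 1 the M8/M3 and F8/F4 rises did not pass (adjusted p = 0.072 and 0.144), nor did M8/M4 without either array (adjusted p = 0.109 and 0.155). A second Ezh1 probe, whose arrays agreed more closely, rose in all 4, with log2 ratios of 0.44, 0.40, 0.42 and 0.34 (adjusted p = 0.00936, 0.0134, 0.0114 and 0.0255). The third, dim probe gave 0.10, 0.08, 0.40 and 0.37, none past the test.

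The log2 ratio of Ezh1 minus that of Ezh2 on the same array, which shows only that their changes were unequal and was not tested, was 1.10 and 0.91 on the M8/M3 arrays and 1.07 and 0.93 on the F8/F3 arrays. From 4 to 8 wk it was 0.62 and 0.68 in males and 0.84 and 0.63 in females. The means were 1.01 ± 0.13 (SD, n = 2) in M8/M3 and 1.00 ± 0.10 (SD, n = 2) in F8/F3. Pool levels of Ezh2 ran from 0.32 and 0.38 in M3 through 0.05 and 0.13 in M4 to -0.33 and -0.29 in M8. Those of Ezh1 ran the other way, from -0.18 and -0.16 through -0.10 and -0.02 to 0.14 and 0.18, and neither gene's ages overlapped in males.

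Of the 4 PRC2 genes examined here, Suz12 and Eed had no age change that passed the test. Suz12 (chr11:79993106-80034123), a scaffold of the complex, had fitted ratios of 0.01, -0.05, 0.02 and -0.08 (each ± 0.04), and the widest interval bounds, -0.17 and 0.11, exclude a 1.5-fold change. Eed (chr7:89954654-89980976), which binds methylated H3K27, had ratios of -0.17, -0.05, -0.25 and -0.09 (each ± 0.07). The largest, in F8/F3, came from arrays at -0.35 and -0.14 and narrowly missed the test (adjusted p = 0.0524).

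The sex comparisons asked whether any of the 10 genes differed between males and females. None was called, where 0.337% of all genes were called lower and 0.180% higher in males at 3 wk, 0.971% and 0.612% at 4 wk, and 3.74% and 2.65% at 8 wk. At 3 wk, 1 gene was lower in males and 0 higher without the fold threshold, against 1.63% and 1.25% of all genes. At 4 wk 0 passed in either direction (4.46% and 3.44% of all genes), where 1 of the 10 and 21.1% of all genes had an unadjusted p below 0.05. At 8 wk, 0 were lower and 1 higher in males (11.5% and 10.2% of all genes). The gene lower in M3 was Dnmt3a, with arrays at -0.34 and -0.15 (-0.24 ± 0.06; adjusted p = 0.0403), and the gene higher in M8 was Ezh2, with arrays at 0.05 and 0.26 (0.16 ± 0.04; adjusted p = 0.045). Both were lost in most of the 14 fits that each left out 1 array, in 11 for Dnmt3a and 12 for Ezh2, and with the replicate number as a block for the pairing of pools (adjusted p = 0.0615 and 0.0503). Uhrf1 stood at 0.43 and 0.03 in M3/F3, -0.22 and -0.10 in M4/F4, and -0.47 and -0.29 in M8/F8, and its fitted ratios of 0.23, -0.16 and -0.38 (each ± 0.20) did not pass. The 8 wk ratio of Tet2 was -0.38 ± 0.11 on its brighter probe (adjusted p = 0.0656) and -0.34 ± 0.08 on the other (adjusted p = 0.0324). For Dnmt3b the M8/F8 arrays disagreed in sign, at 0.29 and -0.40, and its other probes did so as well.

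**Figure D4:**
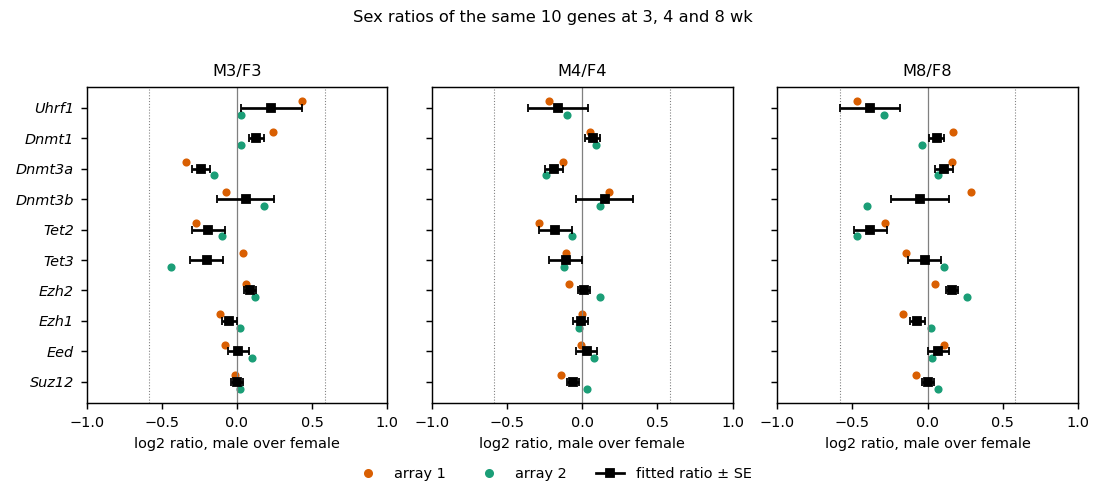
Log2 ratio of males over females (x axis) for the 10 genes (y axis) at 3, 4 and 8 wk, with the 2 arrays as circles, the fitted ratio ± SE as squares and dotted lines at 1.5-fold. No fitted ratio passes the dotted lines, and Dnmt3a lies left of 0 at 3 and 4 wk and right of 0 at 8 wk.

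Among 17 partners in DNA methylation with a named probe, 2 were called lower in M8/M3 and 0 higher of the 16 above background, with a median ratio of -0.07. The share called lower was near that of all genes, 10.0%. Hells, a chromatin remodeller required for normal DNA methylation, fell in all 4 age comparisons, with log2 ratios of -2.46 in M8/M3 and -2.22 in F8/F3 (adjusted p = 0.000166 and 0.000218). Mbd4, a glycosylase that repairs mismatches at methylated sites, fell in both male comparisons (-1.10 and -0.73; adjusted p = 0.00341 and 0.0163). Its female ratios were -0.48 and -0.46, past neither threshold, and the difference between the sexes from 3 wk was not significant (-0.62; adjusted p = 0.16). In females 1 partner was called lower in each age comparison and 0 higher, where 6.64% (F8/F3) and 3.72% (F8/F4) of all genes were called lower.

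Of the 7 other PRC2 subunits, Phf1, a Polycomb-like subunit, was the single gene called, and it rose in M8/M3 and F8/F3 (0.66 and 0.60; adjusted p = 0.00234 and 0.00336). The histone chaperone Rbbp7 fell in the same comparisons (-0.35 and -0.37; adjusted p = 0.00107 and 0.000931), below the fold threshold. Of 21 subunits of the companion complex PRC1, 1 was called lower and 1 higher in M8/M3, and 1 lower and 2 higher in F8/F3 (over all genes, 10.0% lower and 7.81% higher in M8/M3, 6.64% and 5.08% in F8/F3). The chromodomain subunits, which read methylated H3K27, were the ones called: Cbx7 rose by 2.06 in M8/M3 and 1.40 in F8/F3 (adjusted p = 0.00309 and 0.0137), Cbx6 fell (-0.68 and -0.71; adjusted p = 0.000282 and 0.000247), and Cbx2 rose in F8/F3 (0.75; adjusted p = 0.0019) and, below the fold threshold, in M8/M3 (0.47; adjusted p = 0.0116). Neither of the H3K27 demethylases Kdm6a and Kdm6b was called in an age comparison. Without the fold threshold 1 of them was higher in M8/M3, and 1 was lower and 1 higher in F8/F3. In M3/F3 1 of them was called lower (-0.68), as were 0.337% of all genes. Of 12 other histone methyltransferases 1 was called in M8/M3, Suv39h1, which fell (-0.72; adjusted p = 0.0037), where 10.0% of all genes were called lower.

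Genes of DNA replication and cell division fell over the same ages as Uhrf1, Dnmt3b and Ezh2. Of 24 S phase genes, 22 were called lower in M8/M3 and 14 in M8/M4, and in females 19 from 3 wk and 17 from 4 wk, with medians of -1.50, -0.87, -1.43 and -0.81. Only 1 was called higher, in F8/F3. Over all genes, 10.0%, 6.38%, 6.64% and 3.72% were called lower in the same order. The replicative helicase subunit Mcm6 had a log2 ratio of -2.72 in M8/M3 and the ribonucleotide reductase subunit Rrm2 one of -2.58 (adjusted p = 5.59e-05 and 5.37e-05). All 12 mitosis genes were called lower in each age comparison, with medians of -3.53, -2.88, -3.15 and -2.85, and among them the proliferation marker Mki67 fell by 4.02 in M8/M3. Some of these genes, such as Aurkb and Cdc6, were not well above background at 8 wk, so that their ratios are imprecise. The medians include them. Of 11 genes of E2F factors and pocket proteins, 5 were called lower and 2 higher in M8/M3 (10.0% and 7.81% of all genes). E2f7 and the pocket protein gene Rbl1 fell (-2.01 and -1.55; adjusted p = 0.000212 and 0.000555), whereas Rbl2, a pocket protein of resting cells, rose by 0.88 (adjusted p = 0.000433). The part of cell division in the falls of Uhrf1, Dnmt3b and Ezh2 was not tested.

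**Figure D5:**
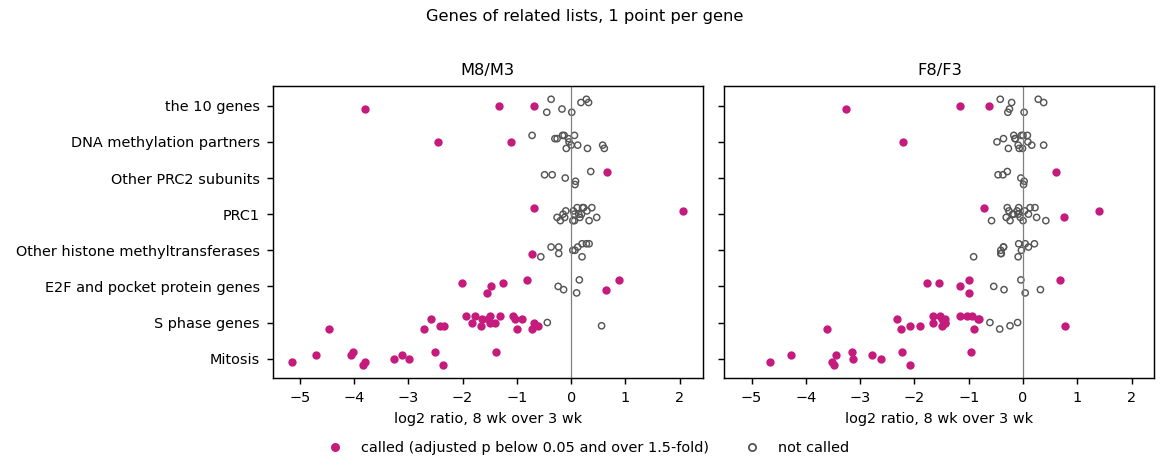
Log2 ratio of 8 wk over 3 wk (x axis) in males and females for genes of related lists (y axis), 1 point per gene above background in at least one compared group. Filled points are called. All mitosis genes and most S phase genes lie left of 0, whereas the lists of chromatin genes scatter around 0 with a few points apart.

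Markers of other cell types moved over the same ages. Of the 6 erythroid markers with a named probe, 4 were called lower in each age comparison, with medians from -1.56 to -1.28, and Alas2 was higher in M8/M3 and M8/M4. Of 5 stellate and mesenchymal markers 3, among them Col1a1 and Col3a1, were called lower each time, with medians from -0.96 to -0.65. Of 5 granulocyte markers 4 were called lower in M8/M3, F8/F3 and F8/F4 and 2 in M8/M4. Endothelial markers were called in no age comparison, with medians from -0.20 to -0.13 and 1 to 3 of 5 past the test without the fold threshold, and of 6 hepatocyte markers at most 1 was called in each direction. Of 5 lymphocyte markers above background 1 was called lower in each male comparison and 0 in females, of 4 macrophage markers 2 in each male and 1 in each female comparison, and of 5 bile duct markers 2 in M8/M3 and 1 in the others. The part of these cells in the results for the 10 genes was not tested.

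Among 10 imprinted or PRC2-silenced loci, read as genes and not as a measure of methylation, 8 were above background in M8/M3, of which 6 were called lower and 1 higher (10.0% and 7.81% of all genes). Of 7 in M8/M4, 3 were called lower and 1 higher (6.38% and 4.44% of all genes). In females 4 of 8 were lower and 1 higher from 3 wk (6.64% and 5.08%), and 2 of 7 were lower and 0 higher from 4 wk (3.72% and 2.28%). Mest fell in M8/M3 and F8/F3 (-2.47 and -1.98; adjusted p = 0.000209 and 0.000411), as did Plagl1 (-1.70 and -1.41; adjusted p = 0.00068 and 0.00128). Cdkn1c, a cell cycle inhibitor, fell in both (-1.57 and -0.72; adjusted p = 0.00013 and 0.00153), more in males (difference -0.84; adjusted p = 0.0107). Cdkn2b, another inhibitor and a known PRC2 target, rose in both (1.42 and 0.69; adjusted p = 0.00253 and 0.0391).

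Across the 14 ratios, the genes whose pattern was most like that of a member were found among 12296 genes above background in every channel. The correlations are descriptions, since the 14 arrays share 12 pools and many genes follow the contrast between young and adult liver. For Uhrf1 they were Ccdc80 (r = 0.996), Rrm1 (r = 0.995) and Hells (r = 0.992), and for Ezh2 they were Pask (r = 0.992), Fanca (r = 0.988) and the primase subunit Prim1 (r = 0.985). For Ezh1 they were Maoa (r = 0.994), Klkb1 (r = 0.978) and Ngef (r = 0.974), and for Dnmt3b Desi2 (r = 0.987), Mal2 (r = 0.986) and Ttyh3 (r = 0.982). The closest genes to Dnmt1 were Abce1 (r = 0.969), Ppbp (r = 0.967) and Afap1 (r = 0.954), and to Dnmt3a Dis3l2 (r = 0.960), Tmem19 (r = 0.951) and Kcnh4 (r = 0.950). The closest single genes to the others were for Tet2 (Nfyb, r = 0.936), Tet3 (Fscn3, r = 0.890), Eed (Farsb, r = 0.975) and Suz12 (Ppip5k2, r = 0.902). Among the members themselves, Uhrf1 and Ezh2 had r = 0.956, Uhrf1 and Dnmt3b r = 0.876, and Ezh1 and Dnmt1 r = -0.902.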

How the data were processed

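Liver RNA pools were hybridised in pairs to Agilent mouse arrays, and the scans were processed by the authors with Feature Extraction (version 10.7.1.1, per the file headers), with linear and LOWESS normalization. The authors deposited, for each array, spot signal intensity per channel and the log10 ratio of red over green with its error. Those log10 values were converted here to log2, averaged over the spots of a probe (control spots and 0 to 10 non-uniform spots per array left out) and turned to male over female or older over younger by the dye labels. The methods text gives another dye order for the 3 wk sex arrays, the comparison it describes; the labels were used, and sex-linked genes followed them. Of 39429 probes, 26055 were named through RefSeq accessions. Tet1, Mll1, Mll2, H19, Hbb-b1 and Cd68 of the lists were not analysed here, as no accession matched.

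All 14 arrays were fitted with limma (version 3.58.1, R 4.3.3), with 7 comparisons and a dye term; p-values were adjusted by Benjamini-Hochberg over all probes and the 7 comparisons, and within each sex by age or 3 to 4 wk contrast. Calls needed an adjusted p below 0.05, a ratio past 1.5-fold and a compared group well above background on both arrays. Shares of all genes use 1 probe per named gene and the same background condition. Pool levels were solved after subtracting the dye term of this fit, since a dye term cannot be told from the pool numbers; they carry no test. Residuals of the replicates closed around the loops of comparisons at 3 and 4 wk (r = 0.913 and 0.904 over 20451 probes), so pools of the same number served in several comparisons, and comparisons that share a group are not independent. Whether pool members were littermates is not given in the sources used here, and p-values measure the spread between these pools. Slides (4) and scan days (2) each held several comparisons but never 2 arrays of the same comparison on a slide, so slide and scan day were tried as alternatives. Alternatives are given in the closing section. Gene positions and promoters are those of RefSeq, build GRCm38.p6; no genome was used. The members and lists were chosen with earlier results of these data known. From each list, the genes named were those called in most age comparisons, ties by the size of M8/M3, plus the largest called change against the majority, except that ratios were not printed for genes not above background at 8 wk and that a gene the rule names is not reported here; Rbbp7 was named after its values were seen.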

Additional observations from a re-analysis of the deposited data

Results flagged for a closer look

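Dnmt3a was singled out because both male arrays and both female arrays moved in opposite directions with age, in each of the age comparisons. The male change minus the female change was 0.39 on the log2 scale from 3 to 8 wk and 0.28 from 4 to 8 wk. The test of the difference gave an adjusted p of 0.0563 and 0.213 (limma). With 6 group means in place of 7 comparisons the adjusted p was 0.00123 and 0.00689, and with normexp and loess it was 0.0297 for the first; with the shared pools in the covariance it was 0.095 and 0.358. The difference was always below the 1.5-fold threshold. Single arrays were not tested for standing apart, as each comparison had 2.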

How the results depend on the processing

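Results were recomputed under 27 other settings, of which 14 left out 1 array each. No ratio of the 10 genes that passed the test changed sign under any of them. With no threshold on the ratio, the number of genes called became 1 in M3/F3, 1 in M8/F8, 6 in M8/M3 and 5 in M8/M4, and for females 5 in F8/F3 and 4 in F8/F4. Leaving out 1 array gave 1 to 2 called genes in M8/M4, 1 to 3 in F8/F3 and 1 to 2 in F8/F4; the lowest counts came without M8/M4 replicate 2, F8/F3 replicate 1 and either F8/F4 array, and Uhrf1 was the gene that remained each time. The replicate block, which uses the pairing of pools by number, left the counts at 3, 2, 3 and 2 in the age comparisons; it lost the M3/F3 difference of Dnmt3a (adjusted p = 0.0615) and the M8/F8 difference of Ezh2 (adjusted p = 0.0503), and changed no other call. A dye term for each scan day lost the same pair (adjusted p = 0.061 and 0.0664), and adjustment within each comparison lost Dnmt3a (adjusted p = 0.304). With the shared pools in the covariance, the 3 wk falls of Dnmt1 and the same sex differences (adjusted p = 0.0577 and 0.26) no longer passed. An average weighted by the deposited errors, at an unadjusted p below 1e-04, stood in for the Rosetta error model of the methods, which was not run; it kept Uhrf1 and Dnmt3b in all age comparisons and Ezh2 against 3 wk, and the Ezh2 falls from 4 wk, the sex differences and the changes of Ezh1, Tet2 and Dnmt1 did not pass it. The Uhrf1 falls were called under all 27 settings, with log2 ratios from -3.97 to -2.32 in M8/M3, -2.52 to -1.5 in M8/M4, -3.6 to -1.94 in F8/F3 and -2.41 to -1.13 in F8/F4. Other settings added results: with 6 group means, 16 further results passed the test, among them Tet2 in M8/F8 (adjusted p = 0.00622), Tet3 in M8/M3 (adjusted p = 0.0255) and the sex difference of the Uhrf1 fall from 3 wk (-0.57; adjusted p = 0.0461), which turned to 0.27 with normexp and loess. The fit with 6 group means counts arrays that carried the same pools as replicates, so its p-values can be too small. Eed in F8/F3 passed in 9 settings, and Tet2 in M8/F8 and Dnmt3a in F8/F3 in 6 each. Signal over background limited Tet3, the second Uhrf1 probe and the third Ezh1 probe.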
